A study of Mus musculus with 2 samples.

Results

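Gene deserts are stretches of the genome without protein-coding genes. On the 19 autosomes, 2864 open regions lay in them, of 78952 autosomal regions and 80938 regions on every chromosome, in megakaryocyte progenitors of the mouse. The regions are those of the conservative list that the authors made from both libraries with a threshold on the irreproducible discovery rate (IDR), a measure of how well ranked peaks recur between replicates. A region counted as a desert region when its strongest summit lay in no protein-coding gene of GENCODE M21 and over 200 kb from every protein-coding start site. They were 3.63% of autosomal regions, with a Wilson 95% interval of 3.499 to 3.76%. All such intervals here cover counting error only. The choice of desert regions rests on position and on which summit of a region was strongest, and on no comparison of levels.

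Megakaryocyte progenitors are precursors of megakaryocytes, the blood cells that release platelets. The assay, ATAC-seq, uses a transposase that inserts adapters into DNA not covered by nucleosomes. There was 1 group, with no treatment named in the labels, of primary cells. The mice were C57BL/6J males of 5 to 6 weeks, and each of the 2 libraries, biological replicates 1 and 2 per the labels, took 50000 cells. The labels give both libraries the same donor code, and whether they came from separate animals is not stated, so that the spread between them may be technical. There was no other condition.

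Open chromatin far from genes often marks enhancers, short DNA elements where transcription factors bind and from which they act on a promoter over a distance. Deserts tend to border genes for developmental and lineage regulators, and some hold several enhancers of the same gene. In blood progenitors, factors of the ETS, RUNX and GATA families are among those known to bind such elements, while CTCF binds sites that shape loops between distant pieces of DNA.

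Sequences from 11 desert regions are printed here because the results below turn on them. All are from the RefSeq assembly GRCm38.p6 (mm10), written 5′ to 3′ on the plus strand, except the 4 from the Igh locus, which are on the minus strand as their V segments are. The first is the strongest desert region, and its capitals mark bases in 25-base words that also occur in mitochondrial DNA. The next 4 are the strongest desert regions holding the motifs of CTCF, of GATA, of ETS together with AP-1, and of RUNX, with the match in capitals. The windows near Maf and near Myc are the strongest near each gene that hold the ETS motif, also in capitals. They and the Igh stretches were chosen after their values were seen. The Igh stretches begin at the heptamer CACAGTG beside a V segment and carry the RUNX match shortly after it. They are not centred on the summit, and that of the Ighv1-58 region, at 115312102, lies outside its stretch.
Near Nxph1, chr6:9889968-9890118: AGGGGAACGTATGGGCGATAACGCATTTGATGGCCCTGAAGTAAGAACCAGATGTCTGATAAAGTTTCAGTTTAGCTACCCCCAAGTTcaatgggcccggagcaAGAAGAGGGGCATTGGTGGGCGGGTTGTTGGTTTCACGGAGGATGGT
CTCF, beside Gm21769, chr8:20122194-20122344: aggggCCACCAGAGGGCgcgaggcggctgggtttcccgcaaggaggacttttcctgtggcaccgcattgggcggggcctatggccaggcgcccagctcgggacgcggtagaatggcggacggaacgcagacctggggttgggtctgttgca
GATA, near Nr4a2, chr2:56305010-56305160: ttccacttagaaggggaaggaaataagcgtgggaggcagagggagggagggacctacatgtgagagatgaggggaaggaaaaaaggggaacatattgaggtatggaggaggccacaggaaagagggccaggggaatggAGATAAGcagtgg
ETS and AP-1, near Rab28, chr5:40953042-40953192: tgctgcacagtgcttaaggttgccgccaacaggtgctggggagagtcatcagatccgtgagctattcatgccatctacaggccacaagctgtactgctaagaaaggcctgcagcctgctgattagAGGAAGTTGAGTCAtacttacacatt
RUNX, near Atp2b1, chr10:98494475-98494625: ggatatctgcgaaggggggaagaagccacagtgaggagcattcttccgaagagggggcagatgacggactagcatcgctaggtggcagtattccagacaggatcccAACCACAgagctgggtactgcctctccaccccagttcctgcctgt
ETS, near Maf, chr8:115398163-115398313: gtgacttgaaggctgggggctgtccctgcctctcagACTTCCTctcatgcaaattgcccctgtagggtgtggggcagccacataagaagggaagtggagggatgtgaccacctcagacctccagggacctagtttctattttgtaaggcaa
ETS, near Myc, chr15:61540950-61541100: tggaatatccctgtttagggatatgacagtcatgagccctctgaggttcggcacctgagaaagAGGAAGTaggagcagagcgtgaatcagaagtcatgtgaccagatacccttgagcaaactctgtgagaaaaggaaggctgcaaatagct
Ighv1-58, chr12:115312127-115312165: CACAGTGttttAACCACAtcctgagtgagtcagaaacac
Ighv1-47, chr12:114991069-114991107: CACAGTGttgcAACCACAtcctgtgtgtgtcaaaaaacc
Ighv1-62-2, chr12:115446370-115446408: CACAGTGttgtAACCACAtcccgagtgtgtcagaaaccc
Ighv1-23, chr12:114764411-114764449: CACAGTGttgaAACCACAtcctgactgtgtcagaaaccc

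The labelled cell type was checked on promoters first, and their opening did not set it apart. Over all 20698 autosomal protein-coding genes, 61.4% had an open region within 1 kb of a start site. Of 16 autosomal megakaryocyte marker genes, 10 had one, a share near that background, among them Itga2b (the platelet integrin alpha IIb chain), Pf4 (platelet factor 4) and Gp9 (part of the glycoprotein complex by which platelets hold on to von Willebrand factor). Vwf, the gene of von Willebrand factor, and Fli1, an ETS factor gene, were among those with none. Markers of other cells were open too, at 4 of 5 granulocyte, 3 of 4 monocyte, 3 of 4 erythroid, 2 of 5 B cell and 1 of 5 T cell genes, and none of 3 liver genes was. What part cells of other types had in the desert regions was not tested. The depth of the libraries is unknown, since the files used hold no read counts.

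Desert regions were sparse, and their median signal was not below that of other intergenic regions. Deserts beyond 200 kb made up 528 Mb, or 22.04% of autosomal sequence outside gaps, and held 5.42 open regions per Mb. The rest of the autosomes held 40.7 per Mb, 7.51 times as many. Intergenic sequence from 1 to 200 kb of a start site held 31.8 per Mb. Signal, the value that the authors' peak caller gave to each peak, had a median of 9.73 in desert regions. It was 8.90 in the 27352 other intergenic regions, 8.50 in the 30435 intronic ones and 9.83 in the 14908 promoter regions. The quartiles of desert signal were 7.58 and 12.6, against 6.76 and 11.8 for other intergenic regions. Their −log10 q value went the other way, with a median of 45.9 in deserts and 49.5 in other intergenic regions. The median desert region was 411 bp wide, and 23.3% had more than 1 summit, against 420 bp and 26.5% in other intergenic sequence and 772 bp and 62.8% at promoters.

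Density fell with each step away from genes, and beyond 200 kb median signal was slightly higher in each farther bin. There were 46.5 regions per Mb at 1 to 10 kb from a start site, 15.9 at 100 to 200 kb, 10.4 at 200 to 300 kb, 5.53 at 300 to 500 kb, 3.17 at 500 to 1000 kb and 1.38 beyond 1000 kb. Median signal over the last 4 of these bins was 9.53, 9.89, 9.91 and 10.7, and beyond 1000 kb it rests on 105 regions. Of the 509 regions at 500 to 1000 kb, 98 lay in loci of antigen receptor genes, which are described below, and of the 105 beyond, 26 did. With these regions left out, but the sequence of their loci kept, the density was 2.56 per Mb at 500 to 1000 kb and 1.04 beyond. Median signal by bin is not given without them.

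Around the cutoff of 200 kb, values are signals in the conservative list. Just inside it lay regions 200.018 kb from Diras2, with a signal of 7.75, 200.072 kb from Stard3nl, with 15.5, and 200.075 kb from Gm11361, with 8.41. Just outside lay regions 199.983 kb from Peli2, with 12.6, 199.890 kb from Rab11fip2, with 10.2, and 199.784 kb from Apob, with 12.4.

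Recurrence between the libraries was measured in the IDR-thresholded list that the authors made from each library alone. Of the 2864 desert regions, 67.9% were in the list of replicate 1 and 66.4% in that of replicate 2. Both lists held 1632 of them, 57.0% with an interval of 55.2 to 58.8%, and 650 (22.7%) were in neither. The share in both was 61.6% for other intergenic regions, with an interval of 61.0 to 62.1%, 58.5% for introns and 81.9% for promoters. Among other intergenic regions it was 60.1% at 1 to 10 kb from a start site, 63.1% at 10 to 50 kb and 61.3% at 50 to 100 kb. At 100 to 200 kb it was 58.8%, with an interval of 57.1 to 60.4% that overlapped that of the desert regions. The more inclusive pseudoreplicated lists of the replicates held 98.2% and 98.5% of desert regions.

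At similar signal, desert regions were less often in both lists than other intergenic ones in the 4 lower of 5 bins, with intervals apart, and in bins of q value the intervals overlapped. All autosomal regions were split into 5 equal bins by signal. In the lowest bin 9.96% of 281 desert regions and 22.3% of 5131 other intergenic regions were in both lists, and in the second 16.7% and 36.2%. The third bin had 43.8% and 62.8%, the fourth 80.9% and 86.9%, and the highest 97.5% and 98.4%, where the intervals overlapped. In 5 bins by −log10 q, the shares were 1.79% and 1.81%, 34.1% and 37.2%, 81.1% and 82.4%, 97.5% and 98.4%, from the lowest bin to the fourth, and in the highest all 374 desert regions and 99.97% of the others were in both.

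Placed on its own, each library gave a similar share. The list of replicate 1 had 2045 desert regions of 60264 (3.39%) and that of replicate 2 had 1952 of 58672 (3.33%), a mean of 3.36% ± 0.0470 (SD, n = 2). Within the list of replicate 1 the median signal was 9.75 in deserts and 8.97 in other intergenic regions, and within that of replicate 2 it was 10.4 and 9.53. Both lists shared 1641 desert regions, 80.2% of those of replicate 1 and 84.1% of those of replicate 2. Among the 1632 regions in both lists, signal ran from 4.49 through a median of 10.5 to 31.0 in replicate 1 and from 4.10 through 10.98 to 30.5 in replicate 2. It was higher in replicate 2 for 64.5% of them, with a median log2 ratio of 0.07, and how the 2 libraries were scaled is not known here. None differed by more than 2-fold. Across these regions, which share libraries and sequence, Spearman's rho between the replicates was 0.871. All 1632 had passed the threshold on recurrence and were in both lists, a choice that favours close values. Neither the rho nor the lack of 2-fold differences covers the desert regions that were not in both lists.

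**Figure D1:**
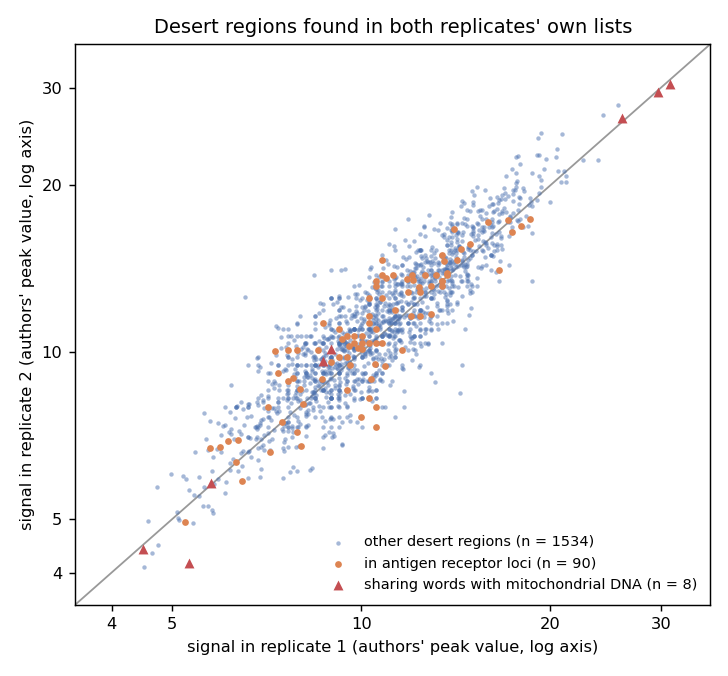
Signal of the 1632 desert regions found in both replicates' own lists, replicate 1 against replicate 2, each point 1 region, on log axes with the line of equal values. Most points lie close to the line, the 90 regions in antigen receptor loci lie among the others, and 3 of the regions that share words with mitochondrial DNA are at the upper end.

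The strongest desert regions included copies of mitochondrial DNA. The strongest (chr6:9889880-9890223), 940 kb from Nxph1, which encodes a secreted ligand of neurexins, had a signal of 31.0 in replicate 1 and 30.5 in replicate 2 (30.7 ± 0.421, SD, n = 2). The second, 1766 kb from G6pd2, had 29.7 and 29.5, and the fourth, 1182 kb from Galc, had 25.99 and 26.41. The 25-base words of mitochondrial DNA made up 47.8%, 44.6% and 70.1% of the words in these 3 regions. In all, 10 desert regions had over 5% such words, 0.349% of the desert set, and 14 of the 76088 other autosomal regions did (0.0184%). Another 6 of the 10 lay next to each other on chromosome 4, about 830 kb from Tyrp1, with signals from 3.62 to 9.82. The part of reads from mitochondrial DNA in these signals was not tested. Without the 10 regions the median desert signal was 9.73, as with them.

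The third strongest was of another kind. It lay 115 bp from the start of the processed pseudogene Gm21769 on chromosome 8 and had 25.7 in replicate 1 and 28.0 in replicate 2. Its window was 68.2% G and C, the CTCF match printed above lies near its start, and it shared no words with mitochondrial DNA. Of the next 6, in order near Dtwd2, Rpl36a-ps1, Kctd12, Nr4a2, Rapgef2 and Rab28, none shared such words, and their mean signals ran from 21.9 to 25.5. The region near Nr4a2, a nuclear receptor gene, had 22.6 and 22.3 and held the GATA match, and that near Rab28, a small GTPase gene, had 20.5 and 23.3 and held the adjoining ETS and AP-1 matches. Within this group the replicates differed most near Rapgef2, at 19.3 and 24.8.

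The 3 most distant regions covered a wide range of signal. Of the 4 strongest, 2 lay over 1000 kb from a start site, and both shared words with mitochondrial DNA. The region farthest from a protein-coding start site, 2140 kb from Cdh20, a cadherin gene, had 11.6 in replicate 1 and 13.8 in replicate 2. The next, 1962 kb from Pcdh20, was in neither replicate's IDR list and had 5.270 and 5.197 in their pseudoreplicated lists. The region 1812 kb from G6pd2 had 16.8 and 19.2 and held ETS and PU.1 matches. Of the widest, 1442 bp near Rngtt had 8.87 and 9.43, 1438 bp near Rnls had 13.1 and 13.6, and 1402 bp on the Sox4 side of its desert had 9.55 and 9.96. The strongest absent from both IDR lists lay 223 kb from Btbd3, with a signal of 13.7 in the conservative list and 11.6 and 11.9 in the replicates' pseudoreplicated lists. The next such regions, near Pln and near Atp2b1, had 12.03 and 11.05 in the conservative list.

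Desert regions were spread unevenly over the deserts. Counted between neighbouring protein-coding genes, 908 stretches held sequence beyond 200 kb, and 540 of them (59.5%) held at least 1 desert region. In 145 there was exactly 1. The 81 with 10 or more together held 1372 regions, 47.9% of the set, in 14.5% of desert sequence. The 368 empty ones were short, with a median of 0.160 Mb beyond 200 kb against 0.456 Mb in those with a region, although the longest empty one had 3.62 Mb. The deserts with most regions were Olfr1507 to Dad1 (91) and Adam6a to Zfp386 (69), which hold the Tra and Igh loci. They were followed by Adgrl2 to Adgrl4 (38), Sall3 to Galr1 (30), Nmbr to Cited2 (30) and Id2 to Rnf144a (27).

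Adgrl2 and Adgrl4 encode adhesion receptors coupled to G proteins. The 38 regions between them were in both IDR lists in 27 cases (71.1%), and their signals ran from 3.56 to 17.7 with a median of 9.29. They crowded towards Adgrl2, at a median of 441 kb from its end in a desert of 2.45 Mb, as the maps of 6 deserts show. On either side of that gene 61 desert regions lay in 3.57 Mb. The desert between Nmbr, a neuropeptide receptor gene, and Cited2, which encodes a partner of CBP and p300, had a median signal of 10.2 and 20 of its 30 regions in both lists. That between Sall3, a zinc finger gene, and Galr1 had a lower median of 7.98 and 14 of 30 in both.

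**Figure D2:**
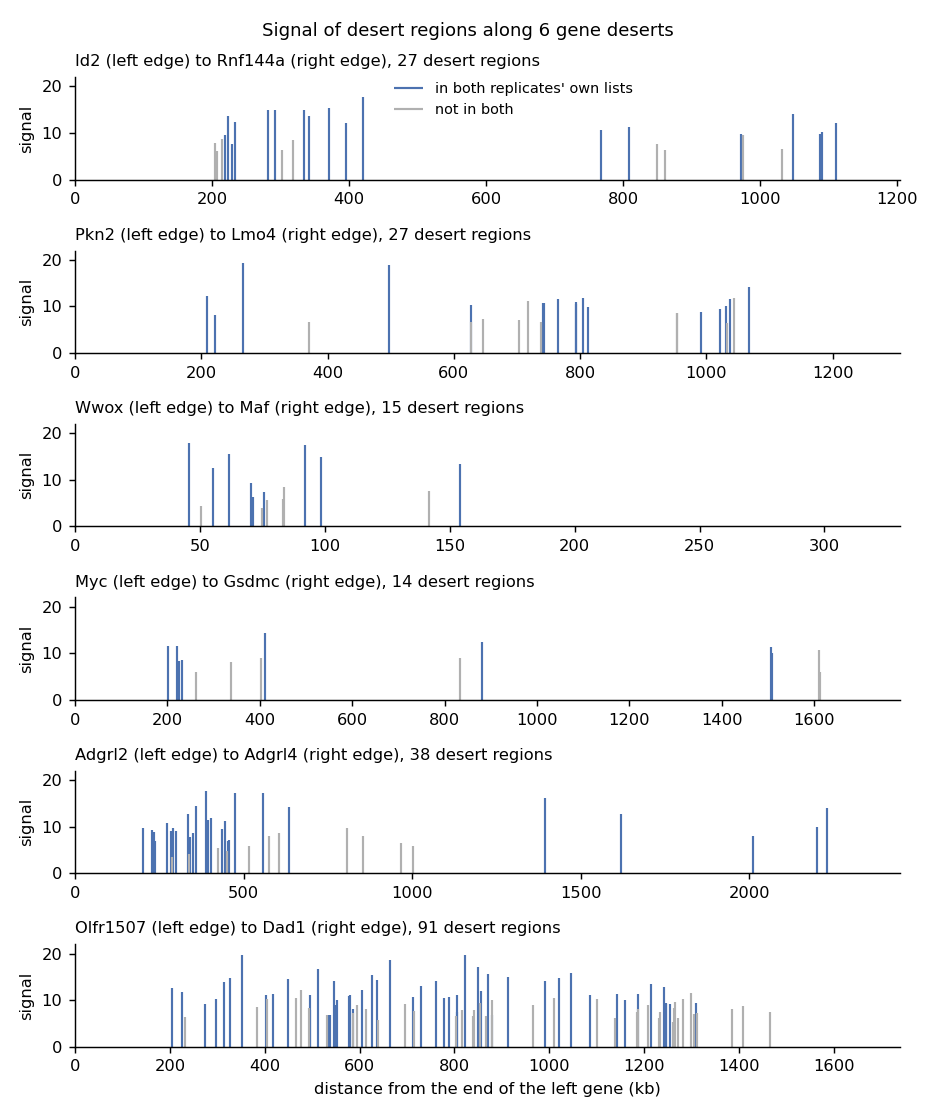
Desert regions along 6 deserts, each line 1 region at its distance in kb from the end of the left gene, with signal in the conservative list as its height and blue for regions in both replicates' own lists. Regions within 200 kb of a start site are not drawn, and lines crowd on the Adgrl2 side of its desert, while the 91 regions of the Olfr1507 to Dad1 desert are spread along it.

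Deserts beside regulators of blood cells held more open regions per Mb than deserts in general. The gene lists compared here were chosen with earlier results of these data known. Of 68 annotated blood regulator genes, 32 flanked a desert and 27 of these had at least 1 desert region beside them. Over all 1562 genes that flanked a desert, 988 had one. In the developmental list 27 of 34 had one, and in the adhesion list 39 of 45. The deserts beside the 32 blood genes held 333 regions in 23.1 Mb, 14.4 per Mb, against 5.42 per Mb over all deserts. Developmental regulators, 34 of which flanked deserts, had 194 regions in 28.1 Mb, 6.90 per Mb. Genes for adhesion and synapses, 45 of which flanked deserts, had 226 in 107 Mb, 2.10 per Mb, and 1.59 without the deserts of Adgrl2. Relative to all deserts the blood list stood at 2.78 in the list of replicate 1 and 2.72 in that of replicate 2 (2.75 ± 0.0470, SD, n = 2). The developmental list stood at 1.31 and 1.27 and the adhesion list at 0.392 and 0.385.

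The order of the lists was the same at each distance from a start site. At 200 to 300 kb the blood list had 25.6 regions per Mb, the developmental list 9.29, the adhesion list 5.16 and all deserts 10.4. At 300 to 500 kb the values were 14.7, 7.46, 3.52 and 5.53, and beyond 500 kb they were 6.32, 4.34, 1.19 and 2.60. Adhesion deserts were the longer ones, with 68.2% of their sequence beyond 500 kb against 40.4% for the blood list. Of the blood genes, 26 of 32 had a density above that of all deserts, as did 14 of 34 developmental and 4 of 45 adhesion genes. The same count over all 1562 flanking genes is not given here. A desert between 2 genes counted for both, and these are counts of regions, not of links to a gene.

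**Figure D3:**
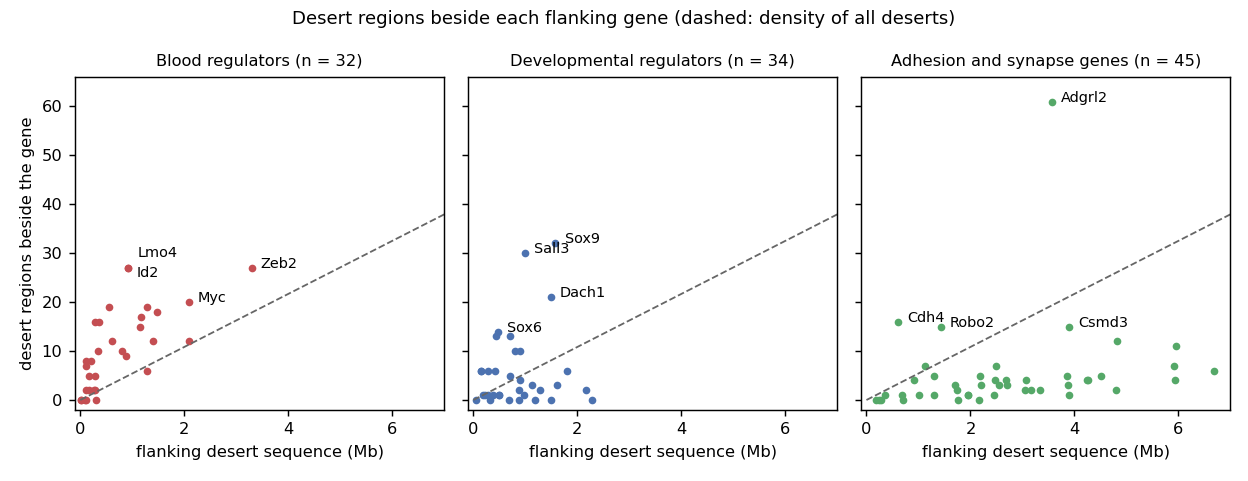
Number of desert regions beside each flanking gene against the desert sequence beyond 200 kb that it flanks in Mb, for blood regulators (32), developmental regulators (34) and adhesion and synapse genes (45), with the 4 highest named. The dashed line is the density of all deserts, 5.42 per Mb, and 26 blood genes lie above it.

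Among blood regulators Id2, Lmo4 and Zeb2 had 27 desert regions each and Myc had 20. Id2 encodes an inhibitor of basic helix-loop-helix factors, and its 27 regions lay in 0.918 Mb, with 18 in both lists. Lmo4, a LIM-domain adaptor of transcription complexes, had its 27 in 0.920 Mb, with 17 in both. Zeb2, a zinc finger repressor, had its 27 in 3.30 Mb, with 17 in both. Maf, a leucine zipper factor, had 19 in 0.552 Mb. Runx1, which megakaryocytes need to mature, had 16 in 0.359 Mb, with 8 in both, and Meis1, a homeobox factor of stem cells and megakaryocytes, had 17 in 1.17 Mb, with 5 in both. Runx1 and Meis1 were named after their values were seen. Kit, Bcl11b, Mecom, Bcl6 and Rora flanked deserts without a desert region, and these deserts had between 0.00469 and 0.300 Mb beyond 200 kb. Among developmental regulators Sox9, a factor of cartilage and testis, had 32, Sall3 30, Dach1 21 and Sox6 14. In the adhesion list Adgrl2 was followed by Cdh4 with 16, Csmd3 with 15 and Robo2 with 15.

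By nearest start site, Adgrl2 led with 53 desert regions, followed by Cited2 with 24 and Camk1g, a calcium-dependent kinase gene, with 21. The 16 nearest Id2 had a median signal of 12.3 and the 17 nearest Inhba, which encodes a subunit of activin, had 13.0. The 18 nearest Mef2c, a transcription factor gene, had a median of 8.35 with a maximum of 23.2.

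Myc drives growth and division, and enhancers far from it in both deserts at its sides are known from other cells. Of its 20 desert regions 14 lay on the side of Gsdmc and 6 on the side of A1bg, and 8 and 1 of these were in both lists. The region printed above, 444 kb from Myc on the A1bg side, was that 1, with 11.3 in each replicate and ETS, PU.1, AP-1, MEIS and CEBP matches. On the other side 4 regions lay between 204 and 234 kb from Myc, 1332 to 12997 bp from a start site of the noncoding gene Pvt1, all 4 in both lists, with signals of 8.25 to 11.6 in the conservative list. One at 414 kb had 11.6 in replicate 1 and 13.5 in replicate 2, and that at 884 kb had 10.8 and 9.17. At the far end 4 desert regions lay 1510 to 1616 kb from Myc and 205 to 311 kb from Gsdmc. Those at 1510 and 1511 kb had 10.33 and 10.01, and 8.56 and 10.2, and both held ETS matches. An enhancer cluster that acts on Myc in blood stem cells of mice is known at this end of the desert. Whether any region named here lies in that cluster was not tested. Past the 200 kb limit around Gsdmc another 18 open regions followed, 1624 to 1784 kb from Myc, with signals of 3.90 to 13.8 and a median of 9.72.

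The share of desert regions in clusters was lower than that of other intergenic ones, in sequence with 5.42 against 31.8 regions per Mb, and the part of this density in the share was not tested. With neighbouring desert regions joined over short gaps, 824 regions (28.8%) fell into 208 clusters of 3 or more, against 48.0% of other intergenic regions. Another 1360 (47.5%) had no other desert region within such a gap. Open regions outside the desert set were not counted as their neighbours. Clustered regions had a lower median signal than single ones, 8.57 against 10.5, and a similar share in both lists, 58.3% against 55.1%. The largest cluster held 13 regions in 53.2 kb, 256 to 309 kb from Maf (chr8:115397947-115451180). It had 8 regions in both lists, signals from 3.87 to 17.9 and ETS matches in 6 regions. The strongest of them, printed above, had 15.99 in replicate 1 and 16.80 in replicate 2. A cluster of 10 regions near Uaca (chr9:61012828-61057332) had 7 in both lists and signals of 5.64 to 10.2. Of the 5 largest, the other 3 lay in the Tra locus, with 11, 10 and 9 regions.

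The deserts densest in regions were short. Among those with at least 5 regions, the stretch between Amph and Stard3nl, which includes part of the Trg locus, had 8 in 0.0448 Mb. That between Klf14 and Mkln1 had 7 in 0.0397 Mb, with a median signal of 10.2 and 6 of 7 in both lists. That between Wwox and Maf had 15 in 0.154 Mb, with 9 in both.

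Loci of antigen receptors count as deserts because their gene segments, which lymphocytes join to make receptors, are not annotated as protein-coding genes. They held 174 desert regions, 6.08% of the set, with 91 in Tra on chromosome 14, 69 in Igh on chromosome 12, 9 in Igk on chromosome 6 and 5 in Trg on chromosome 13. Their median signal was 9.52, and 51.7% were in both lists, against 57.3% of the other desert regions. The Tra regions had a median of 10.1 and 51 of 91 in both lists, and the Igh regions had 8.94 and 31 of 69.

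The summits lay on opposite sides of V segments in the 2 loci. In Igh, 45 of 69 summits were within 1 kb of a V segment, and 37 of these lay past its 3′ end, 5 inside it and 3 before its 5′ end. The 37 were a median of 60 bp past the end, and 32 were within 100 bp. A recombination signal, made of a heptamer, a spacer and a nonamer, stands at that end of a V segment. In Tra, 55 of 91 summits were within 1 kb, and 49 of these lay before the 5′ end, where V segments have their promoters, 4 inside and 2 past the 3′ end. The 49 were a median of 136 bp upstream. The Tra regions upstream had signals of 5.29 to 19.7 with 28 of 49 in both lists, and the Igh regions past the 3′ end had 5.44 to 20.3 with 17 of 37 in both. In Igk all 3 summits near a V segment lay past its 3′ end. The sides differed by count only, and regions of a locus share related sequence. At 49 of the 91 Tra summits the 75 bases around the summit had an identical copy on the same chromosome, as had 6 of 69 in Igh. How reads were placed among copies is not given in the sources used here.

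**Figure D4:**
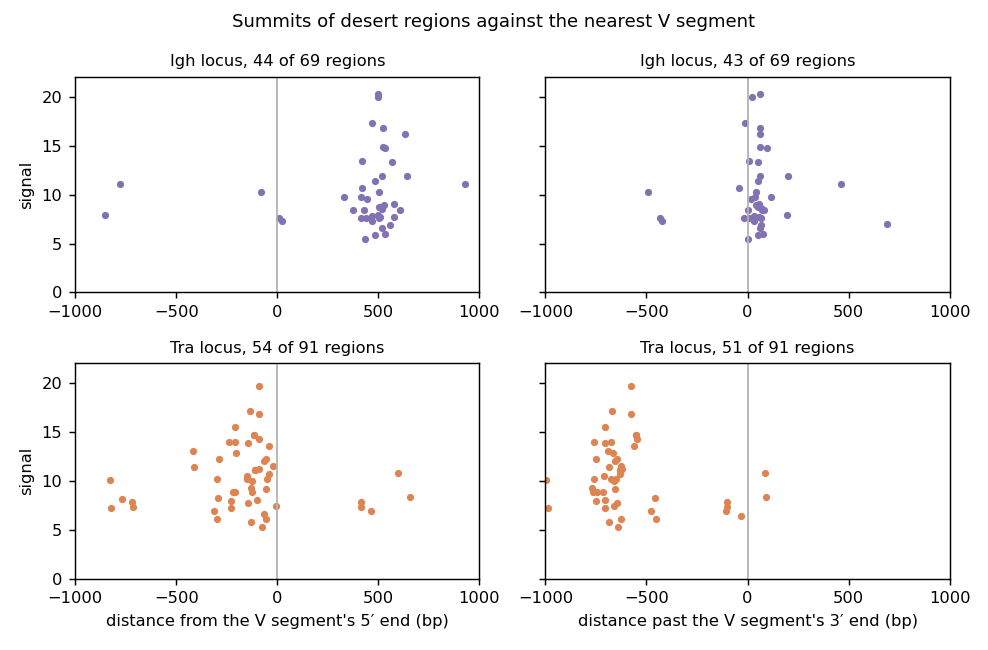
Signal of desert regions in the Igh locus (upper row) and the Tra locus (lower row) against the distance in bp of the summit from the 5′ end of the nearest V segment (left) and past its 3′ end (right), each point 1 region within 1000 bp. Igh points gather just past the 3′ end and Tra points before the 5′ end.

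In Igh the RUNX motif was frequent. Its letters, TGTGGTT on either strand, were in 30 of 69 Igh windows (43.5%), against 7 of 91 Tra windows and 12.47% of all desert windows. In 9 of the 30 the match lay in the 23 bases after a heptamer CACAGTG, which is where the spacer of a recombination signal stands, as in the stretches printed above. All but 1 of these 9 belong to Ighv1 segments. They had signals from 5.44 to 20.3, and 2 were in both lists. Ighv1-58 had 18.6 in replicate 1 and 17.4 in replicate 2, and Ighv1-47 had 17.4 and 16.5. The heptamer was in 20 of the 37 windows past a 3′ end, and in 6.69% of desert windows outside receptor loci. Since V segments of a family are copies of each other, these windows are not independent. The part of the RUNX factors in their opening was not tested.

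Noncoding start sites lay within 1 kb of 253 desert regions, 8.83% with an interval of 7.85 to 9.93%, against 6.83% of other intergenic regions. V segments of antigen receptors were the nearest such gene for 103 of them, long noncoding RNAs for 92, pseudogenes for 50 and small RNAs for 8. Regions at long noncoding RNAs were the wider ones, with a median of 490 bp against 352 bp at V segments, and 62.0% of them were in both lists. Without the receptor loci the share near a noncoding start site was 5.54%. Of the 5 strongest such regions, after Gm21769, that at the processed pseudogene Gm7895 had 20.6 and 21.3, and the 75 bases at its summit occurred 2 times in the genome. Gm12069, a long intergenic noncoding RNA 468 kb from 5730522E02Rik in the desert beside Bcl11a, had 18.2 and 19.6 at its start, with ETS and CTCF matches. The pseudogene Gm5596 had 17.7 and 20.2, and its 75 bases at the summit also occurred 2 times.

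Windows reaching 75 bp to each side of desert summits were searched on both strands for 17 motifs. In 5 of them desert windows had a higher share than other intergenic windows with intervals that did not overlap, in 2 a lower share, and in 10 the intervals overlapped. The ETS motif AGGAAGT was in 22.6% of desert windows (21.1 to 24.1%), 16.4% of other intergenic windows and 3.34% of windows 2 kb from desert summits. Its longer form GAGGAAGT, preferred by PU.1, was in 10.7%, 7.58% and 0.725%, and a window with it also holds the shorter form. The RUNX motif was in 12.47%, 8.888% and 2.900%. TTGCNNAA, bound by CEBP factors, was in 13.97%, 11.13% and 7.395%. The E-box CAGATG was in 16.4%, 14.3% and 11.6%. Among all autosomal regions the shares were 14.9% for ETS, 6.73% for PU.1, 8.04% for RUNX, 9.84% for CEBP and 13.3% for this E-box. The ETS share already rose with distance among other intergenic windows. It was 13.3% at 1 to 10 kb from a start site, 18.1% at 50 to 100 kb and 20.1% at 100 to 200 kb. In deserts it was 22.4% at 200 to 300 kb, 24.0% at 300 to 500 kb, 21.6% at 500 to 1000 kb and 17.1% beyond.

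For the GATA and AP-1 motifs the intervals of desert and other intergenic windows overlapped. AGATAAG was in 5.41% of desert windows (4.64 to 6.30%), 5.47% of other intergenic windows and 5.38% of all regions, and in 2.27% of windows 2 kb away. TGANTCA was in 9.18%, 8.38% and 7.05%, and GCTGANTCA, its extended form for NF-E2, in 2.23%, 2.35% and 1.98%. The KLF motif CACACCC was lower in deserts, at 4.09% against 5.92%, and the CTCF motif was at 6.56% against 8.84%, with 6.65% in all regions. Among other intergenic windows the CTCF share was 9.67% at 1 to 10 kb from a start site, 7.12% at 50 to 100 kb and 6.93% at 100 to 200 kb. In deserts it was 5.73% at 200 to 300 kb, 6.30% at 300 to 500 kb, 9.04% at 500 to 1000 kb and 7.62% beyond. Only 0.0544% of windows 2 kb away held the CTCF motif. For the other 7 motifs the intervals overlapped. TGACAG, searched for MEIS factors, was in 14.8% of desert windows and 13.0% of all regions, and the E-box CAGCTG in 13.0% and 11.8%. The STAT motif TTCNNNGAA was in 3.60% and 3.48%, and in 6.00% of windows 2 kb from desert summits. The homeobox motif TAATTA was in 2.34% and 1.65%, and in 6.13% of those 2 kb away. The SOX motif ACAATGG was in 2.34% and 1.57%, and in 2.81% of those 2 kb away. These 3 motifs were thus not more frequent at desert summits than 2 kb away. The windows 2 kb away had a median of 41.1% G and C, against 47.7% at desert summits. The part of this difference in the motif shares was not tested. In desert windows and all regions, the MEF2 motif TAAAAATAG was in 0.419% and 0.248%. The NRF1 motif GCGCANGCG was in 0.175% and 1.54%, and in 0.399% of other intergenic windows.

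**Figure D5:**
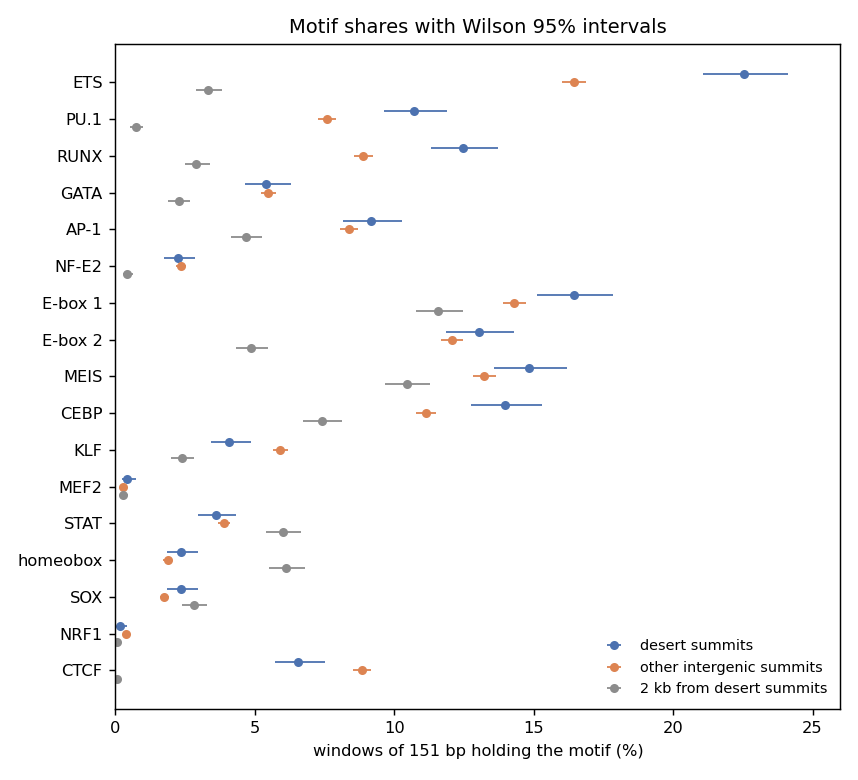
Share of windows, 75 bp to each side of their centre, holding each of 17 motifs at desert summits, at other intergenic summits and 2 kb from desert summits, with Wilson 95% intervals. E-box 1 is CAGATG and E-box 2 is CAGCTG. Over all windows ETS, PU.1 and RUNX stand apart between desert and other intergenic summits, and CTCF and KLF are lower in deserts. At other intergenic summits 100 to 200 kb from a start site, ETS was at 20.1% and CTCF at 6.93%. Within bins of G and C the CTCF and KLF intervals overlap in all 5, those of PU.1 and of RUNX in 3 and those of ETS in 1.

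Base composition differed and was set beside these shares. Desert windows had a mean of 47.5% G and C against 50.6%. With windows below 40% G and C, the ETS motif was in 25.9% of 320 desert windows and 16.9% of 1307 others, and at 45 to 50% it was in 22.01% of 1004 and 17.8% of 8294. The ETS intervals stayed apart in 4 of 5 bins by G and C, all but that of 55% and over, at 16.03% and 11.84% (12.08 to 20.96% and 11.03 to 12.70%). For RUNX the intervals stayed apart in 2 of 5 bins, at 15.4% and 11.4% for 40 to 45% G and C and at 13.6% and 10.4% for 45 to 50%, and overlapped in 3, with 9.12% and 8.67% at 50 to 55%. For PU.1 they stayed apart in 2 of 5. For CEBP they overlapped in all 5, and at 50 to 55% the desert share was the lower one, 8.67% against 9.56%. For KLF and CTCF they also overlapped in all 5, with the desert share lower in each. For GATA they overlapped in 4 and stayed apart at 50 to 55%, where deserts had 3.29% and the others 5.47%. The E-box was not compared by G and C. Without the receptor loci the ETS share was 23.1% and the RUNX share 11.9%. The ETS share was 22.5% in regions found in both IDR lists and 22.6% in the rest, and 22.8% and 22.2% among the desert regions of replicate 1 and of replicate 2 (22.5 ± 0.426, SD, n = 2).

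CTCF matches went with strength. They were in 3.56% of desert windows in the lowest bin of signal and in 8.98% in the highest, and in 5.05% and 13.1% of other intergenic windows. ETS stayed between 21.5% and 24.0% in the 5 bins. Windows with both ETS and RUNX matches were 2.41% of desert windows (1.91 to 3.04%) and 1.49% of other intergenic windows. Of all desert windows, 52.6% held none of the ETS, RUNX, GATA, AP-1 and CTCF motifs, against 58.0%. Regions nearest blood regulators held the ETS motif in 28.1% of 221 cases and regions nearest developmental regulators in 20.8% of 96. Those nearest adhesion genes held it in 31.8% of 107, of which 53 were nearest Adgrl2 alone. A match is a stretch of letters, and which factor bound there was not measured.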

How the data were processed

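Peak lists of 2 ATAC-seq libraries of 1 group were used. Per the deposited file descriptions they are conservative IDR-thresholded, IDR-thresholded, replicated and pseudoreplicated peaks. The authors' lists give for each peak a signal value, a −log10 q-value (the −log10 p-value was not used), a score and a summit. These are the deposited values, and the sources used here name no aligner, caller or scaling between libraries. No read counts were used, so that depth is unknown, and no test was run: values are described by replicate.

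Peaks with the same interval, 1 for each summit, were taken as 1 region and placed by the strongest summit on GENCODE M21, with sequence from RefSeq (Python 3.11.15, numpy 2.4.6, pandas 2.3.3, scipy 1.17.1; figures with matplotlib 3.10.9). A region was shared with another list when 50% of either was covered. Motifs were searched in 75 bp each side of summits, and clusters joined gaps up to 12.5 kb. Scripts were tested on simulated data. The regions named are the 10 strongest in both lists, the 3 farthest, the 3 each just inside and outside 200 kb, the 3 widest and the 3 strongest in neither list. The deserts named are the 6 with most regions, the 3 densest and those beside Myc, with the 5 largest clusters, the 4 leading genes of each flanking list and the 5 strongest regions at noncoding starts. Further names were chosen after their values were seen. The regions, gene lists and motifs were chosen with earlier results of these data known. Alternatives were other distances, annotations, lists, gaps and windows.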

Additional observations from a re-analysis of the deposited data

How the results depend on the processing

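Values are given in the order share of autosomal regions, share in both replicates, density ratio of deserts to the rest, median signal, share in clusters and share near a noncoding start, which were 3.63%, 57.0%, 0.133, 9.73, 28.8% and 8.83%. With genes of every biotype they were 0.144%, 64.9%, 0.0784, 10.5, 21.1% and 0%, the last by construction. With the replicated list they were 4.18%, 28.6%, 0.154, 6.26, 47.7% and 7.95%. Beyond 100 kb the share of regions was 7.83%, the ratio 0.191, the clustered share 35.9% and that near a noncoding start 7.58%, and beyond 500 kb they were 0.778%, 0.0716, 21.5% and 17.3%. In the strongest 50% of regions the first 5 were 4.32%, 83.1%, 0.160, 11.9 and 7.96%. With regions in receptor loci not counted as desert regions, but the sequence of these loci kept as desert, 3.41%, 0.125 and 5.54% moved. The pseudoreplicated lists gave 97.1% in both, gaps of 5 and 25 kb gave 10.7% and 45.9% in clusters, and noncoding starts within 5 kb gave 19.0%. Leaving out 1 replicate gave 3.33 to 3.39%, 0.122 to 0.124, 9.75 to 10.4, 18.1 to 20.4% and 8.56 to 8.90%. A share in both replicates then cannot be had, and the share of 1 library's own desert regions found in the other's list, 80.2 to 84.1%, is another quantity. Density relative to all deserts was 2.66, 1.27 and 0.388 beside blood, developmental and adhesion genes, and 2.78, 1.31 and 0.362 with the replicated list. For adhesion genes it was 0.378 with the IDR list and 0.417 in the strongest 50%. With 1 replicate left out these were 2.72 to 2.78, 1.27 to 1.31 and 0.385 to 0.392. Of 83 such values 33 moved by less than the spread between replicates and 50 moved by more. Among the 50 were the 0% and the 80.2 to 84.1% just named, and the cause was not tested. For the share in both replicates, the spread used was that of the 80.2 and 84.1%, which are the other quantity. Its values are thus not judged by a spread of their own. No paired analysis was possible because there was 1 group, so that no groups share replicate numbers.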
